A study of Rattus norvegicus with 3 samples.

Results

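Chemokines are small secreted proteins that draw leukocytes along a concentration gradient, and chemokine receptors are the G protein-coupled receptors by which those leukocytes read it. Ligands are classed by the spacing of their conserved cysteines into CC, CXC, XC and CX3C types. A ligand may bind several receptors, and a receptor several ligands. In injured skeletal muscle they are best known for recruiting monocytes, which become macrophages in the tissue, and T cells.

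The genes described are those whose symbol in the platform annotation reads Ccl, Cxcl, Ccr, Cxcr, Xcl or Xcr followed by a number, or begins with Cx3c. There were 50 such genes among the 14506 genes with a single-symbol probe set: 33 ligands and 17 receptors, each read by 1 probe set. Levels are log2 RMA values, so a difference of 0.58 is 1.5-fold, the size counted as higher or lower throughout. A gene was called dim when its mean over the arrays lay under 5.34, the 25th percentile of all genes. The mean of 38 members, 27 ligands and 11 receptors, was at or above that level.

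RNA came from the tibialis anterior muscle of male Wistar rats, 11 weeks old, which ate a high-fat diet (45% of energy) for 3 weeks. After 2 weeks of the diet, 150 µg of plasmid DNA was electroporated into the muscle, and tissue was taken 8 days later. There were 3 groups with 1 array each, and each array held RNA pooled from 6 rats. The empty vector group received pcDNA3.1 without an insert, the Plin5 group pcDNA3.1-CMV-Plin5 (OXPAT) and the Plin2 group pENTR-CMV-Plin2 (ADRP). Plin2 and Plin5 encode proteins that coat lipid droplets. All groups therefore shared the diet, the electric pulses and the injected DNA, and the viral CMV promoter does not restrict an insert to muscle fibres. The Plin2 insert was carried on another plasmid backbone, and the effects of insert and backbone cannot be told apart. No array had a replicate. Differences could therefore not be tested against a spread between animals, and the precision is limited by having 3 arrays.

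Of 12 skeletal muscle fibre markers 11 were found, and none was dim on any array. The Plin2 probe set stood at 9.99, 10.71 and 10.08 on the empty vector, Plin2 and Plin5 arrays. The Plin5 probe set stood at 7.52, 6.79 and 8.30 in the same order. Each introduced gene was highest on its own array. Exactly equal values on all 3 arrays were held by 38.7% of all probe sets and by 7 members: Ccl17, Ccl25, Ccl28, Cx3cl1, Cxcl2, Cxcl3 and Ccr6.

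**Figure D1:**
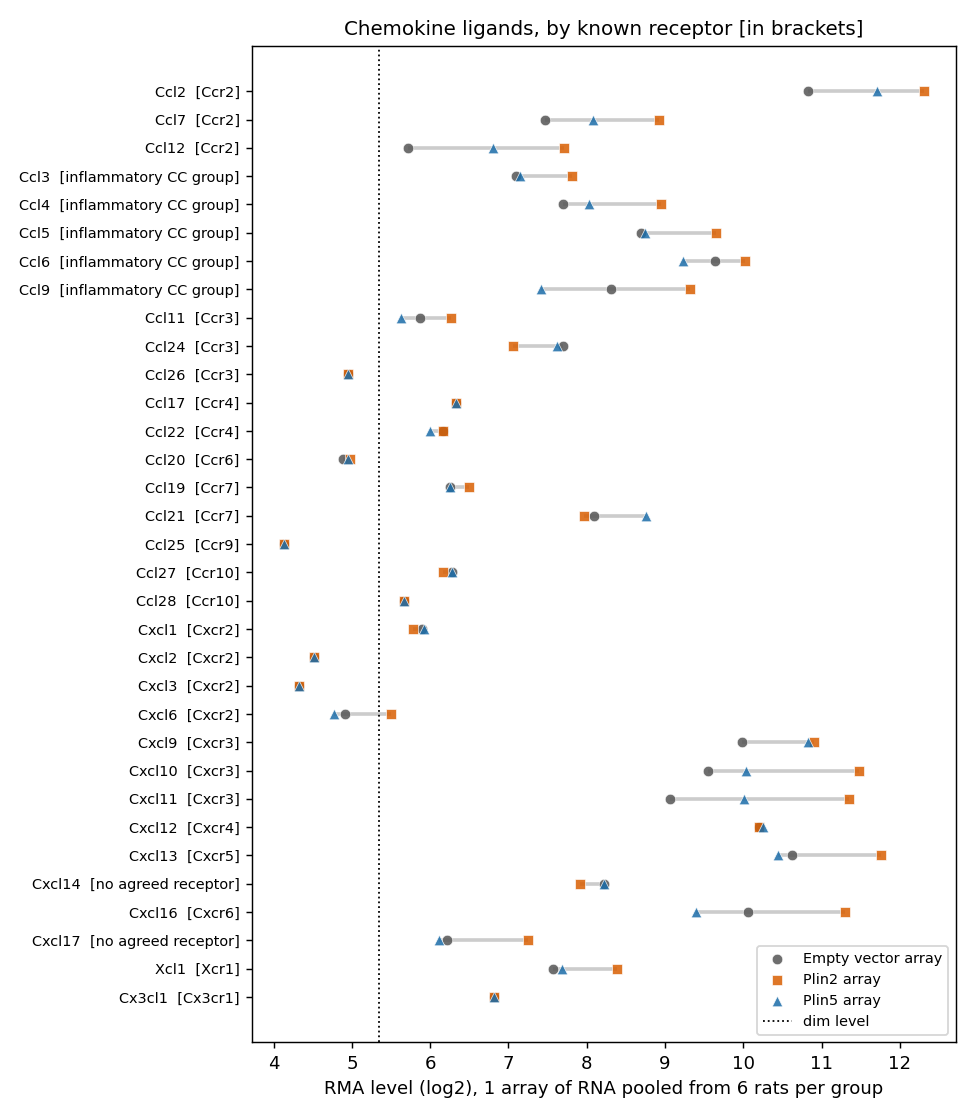
Log2 RMA level of each of the 33 chemokine ligands (rows, with the receptor each is known to bind, or its ligand group, in brackets) on the empty vector (circles), Plin2 (squares) and Plin5 (triangles) arrays; grey bars join the lowest and highest value and the dotted line is the dim level of 5.34. The Plin2 array is highest for 19 ligands, the dim Ccl20 and Cxcl6 among them. The Plin5 array lies above the empty vector for the Ccr2 and Cxcr3 ligands but below it for Ccl9, Ccl6 and Cxcl16.

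The Plin2 array held the highest value of 32 of the 50 members, 19 ligands and 13 receptors. Over all 14506 genes that share was 29.1%, and over the 10879 genes past the dim level it was 36.8%. Among the 32 were the dim members Ccl20, Cxcl6, Ccr4, Ccr9 and Cxcr2, whose order is not reliable. As the 32 of 50 include dim members, the share over all 14506 genes is the like one. Against the empty vector, 14 ligands and 6 receptors were past the dim level and higher by at least 1.5-fold, where 8.84% of the 10879 genes past the dim level were. Among the ligands 1, Ccl24, was lower by that amount (5.8% of genes were), and none of the receptors was. Of the 6 receptors counted as higher, Ccr1l1 passed the dim level only through its value on the Plin2 array. The median difference was 0.71 over the 27 ligands past the dim level and 0.64 over the 11 receptors, beside 0.00 over all genes past it. With dim members included, the medians were 0.38 over 33 ligands and 0.46 over 17 receptors, again beside 0.00. Of all genes, 962 were higher and 631 lower on the Plin2 array, or 775 and 819 after subtracting each array's median gene level (centring). The members' counts under that centring were 14 ligands higher and 1 lower, and 5 receptors higher.

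On the Plin5 array the ligands split. At 1.5-fold against the empty vector, 6 ligands were higher and 2 lower, where 0.221% of genes were higher and 1.42% lower. Those 6 were Ccl2, Ccl7, Ccl12, Cxcl9, Cxcl11 and Ccl21. They made up 25% of the 24 genes that were higher in this comparison, and 22.2% of the ligands past the dim level. The 2 lower ligands were Ccl9 and Cxcl16. None of the 11 receptors past the dim level was higher, and 1, Xcr1, was lower. The median difference was 0.00 for ligands and −0.29 for receptors; with dim members it was 0.00 and −0.02, and with values under the dim level raised to it the receptor median was −0.11. Both sets of differences from the empty vector use the same empty vector array.

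**Figure D2:**
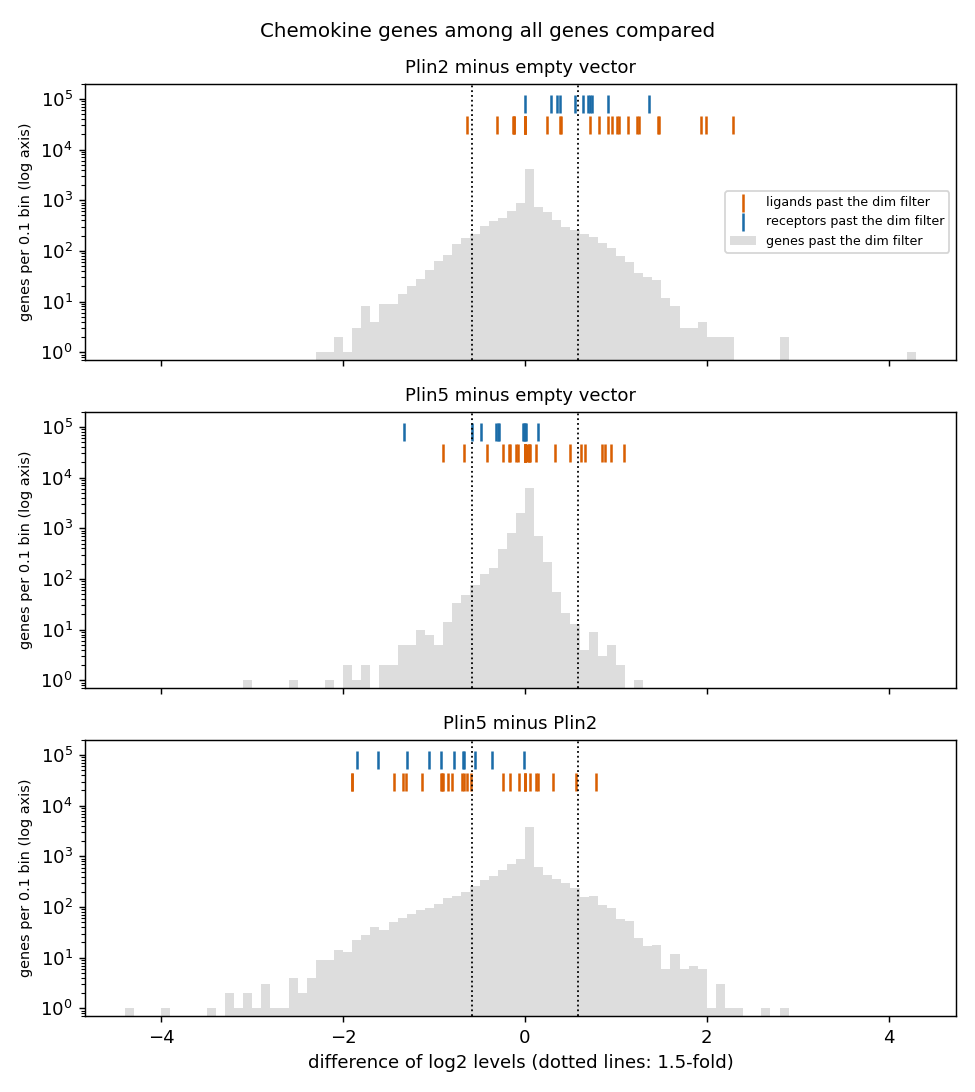
Distribution of the difference in log2 level over the 10879 genes past the dim level (grey bars, number of genes per 0.1 bin on a log axis), with ticks for the 27 ligands and 11 receptors past it, in each of 3 comparisons; dotted lines mark 1.5-fold. Ligand ticks reach 2.29 on the Plin2 array and 1.09 on the Plin5 array against the empty vector, and the receptor ticks lie between 0.00 and 1.37 in the former and between −1.33 and 0.14 in the latter.

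The ligands of Ccr2, the receptor of inflammatory monocytes, were higher on both perilipin arrays than on the empty vector array. Ccl2, the main monocyte chemoattractant, stood at 10.83 on the empty vector, 12.30 on the Plin2 and 11.71 on the Plin5 array. Ccl7, a further monocyte chemoattractant, stood at 7.46, 8.93 and 8.08. Ccl12, a relative of Ccl2 in rodents, stood at 5.72, 7.71 and 6.81. All 3 thus had the order empty vector, Plin5, Plin2 from low to high. Against the empty vector the Plin2 differences were 1.47 for Ccl2, 1.47 for Ccl7 and 1.99 (3.97-fold) for Ccl12. The Plin5 differences were 0.88, 0.62 and 1.09 (2.13-fold). For Ccl12, 1 of the 10879 genes had a larger difference on the Plin5 array and 9 had a larger difference on the Plin2 array.

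Cxcl9, Cxcl10 and Cxcl11 are interferon-induced ligands of Cxcr3, a receptor of activated T and natural killer cells. Cxcl9 stood at 9.99 on the empty vector, 10.90 on the Plin2 and 10.83 on the Plin5 array, so both perilipin arrays were about equally high. Cxcl10 stood at 9.55, 11.48 and 10.04. Cxcl11 stood at 9.07, 11.35 and 10.01. The Plin2 differences from the empty vector were 0.91, 1.93 (3.81-fold) and 2.29 (4.88-fold) for Cxcl9, Cxcl10 and Cxcl11. The Plin5 differences were 0.84, 0.49 and 0.95, of which that of Cxcl10 was 1.41-fold and did not reach the size counted. Cxcl11 had 4 genes with a larger difference in each of these comparisons. Between the perilipin arrays, Cxcl9 differed by −0.07, a direction that turned to 0.05 when the arrays were centred, whereas Cxcl10 (−1.44) and Cxcl11 (−1.34) were lower on the Plin5 array.

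All 6 of these ligands stood above the empty vector on both perilipin arrays, so their promoters are shown where RefSeq sequences (build GRCr8) were at hand. Promoters were found for 39 members, 27 ligands and 12 receptors. The 250 bases before the start site were searched on both strands for GAAANNGAA, the core of the interferon-stimulated response element, TTCNNNGAA, the gamma-activated site, and GGANNTTCC, a kappaB-like motif. Capitals mark matches, all sequences are written 5′ to 3′ on the gene's own strand, and all 5 genes lie on the plus strand. They are chr14:16006916-16007165 for Cxcl9, chr14:15988816-15989065 for Cxcl10, chr14:15973478-15973727 for Cxcl11, chr10:67513845-67514094 for Ccl7 and chr10:67567626-67567875 for Ccl12.
Cxcl9: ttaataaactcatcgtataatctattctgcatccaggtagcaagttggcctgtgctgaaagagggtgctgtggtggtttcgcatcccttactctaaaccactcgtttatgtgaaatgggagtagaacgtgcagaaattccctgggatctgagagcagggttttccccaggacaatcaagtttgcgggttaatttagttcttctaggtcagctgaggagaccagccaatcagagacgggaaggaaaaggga
Cxcl10: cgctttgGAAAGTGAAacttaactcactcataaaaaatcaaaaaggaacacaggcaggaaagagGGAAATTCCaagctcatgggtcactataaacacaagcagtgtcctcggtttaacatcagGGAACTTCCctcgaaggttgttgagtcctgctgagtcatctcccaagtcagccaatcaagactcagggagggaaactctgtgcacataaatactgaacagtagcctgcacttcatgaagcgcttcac
Cxcl11: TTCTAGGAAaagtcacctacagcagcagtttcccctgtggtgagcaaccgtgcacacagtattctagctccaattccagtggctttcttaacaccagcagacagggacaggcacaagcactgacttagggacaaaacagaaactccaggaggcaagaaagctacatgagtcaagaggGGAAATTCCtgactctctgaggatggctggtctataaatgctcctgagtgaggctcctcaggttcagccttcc
Ccl7: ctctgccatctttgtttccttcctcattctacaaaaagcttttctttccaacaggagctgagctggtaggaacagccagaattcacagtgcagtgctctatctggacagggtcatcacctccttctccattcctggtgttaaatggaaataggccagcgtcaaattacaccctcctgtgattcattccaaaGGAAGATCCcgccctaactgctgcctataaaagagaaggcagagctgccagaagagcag
Ccl12: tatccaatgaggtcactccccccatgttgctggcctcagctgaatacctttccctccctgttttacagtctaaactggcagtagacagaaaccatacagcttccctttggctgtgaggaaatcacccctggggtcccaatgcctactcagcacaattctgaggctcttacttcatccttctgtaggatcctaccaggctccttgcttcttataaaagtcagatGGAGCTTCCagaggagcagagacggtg

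In the Cxcl10 promoter the interferon-stimulated core began 243 bases before the start site, and kappaB-like matches began 186 and 127 bases before it. The Cxcl11 promoter had a gamma-activated site 250 bases before the start and a kappaB-like match 73 bases before it. Ccl7 and Ccl12 each had 1 kappaB-like match, at 59 and 27 bases, and these letters were not found in the Cxcl9 window. No matches overlapped in any promoter. Over ligands, 7 of 27 promoters (25.9%) held the kappaB-like motif, against 1 of 12 receptor promoters and 3.36% of all 33469 promoters. The interferon-stimulated core was in 2 of 27 ligand promoters (7.41%) and 8.12% of all promoters. The gamma-activated site was in 3 of 27 (11.1%) and 7.67% of all. Among the 7 ligands with a kappaB-like match were Cxcl1, Cxcl6 and Ccl24, none of which was higher by 1.5-fold on either perilipin array. A match describes the letters only.

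The inflammatory CC ligands Ccl3, Ccl4, Ccl5, Ccl6 and Ccl9, which draw monocytes, macrophages and T cells, were high on the Plin2 array and did not share a direction on the Plin5 array. Ccl3, a macrophage inflammatory protein, stood at 7.10 on the empty vector, 7.82 on the Plin2 and 7.15 on the Plin5 array. Ccl4, its close relative, stood at 7.70, 8.95 and 8.03. Ccl5, a T cell and macrophage product, stood at 8.69, 9.65 and 8.74. For these 3 the Plin2 array exceeded the empty vector by 0.71, 1.26 and 0.96, and the Plin5 array by 0.04, 0.33 and 0.05. Ccl9, a rodent ligand of Ccr1, stood at 8.32, 9.32 and 7.42, which was 1.01 higher on the Plin2 and lower on the Plin5 array (−0.90). Ccl6, also a rodent ligand of Ccr1, stood at 9.64, 10.02 and 9.22. Its differences of 0.38 and −0.41 from the empty vector were under 1.5-fold. Ccl9 and Ccl6 were therefore lowest on the Plin5 array, unlike Ccl3, Ccl4 and Ccl5.

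Cxcl13, Cxcl16, Xcl1 and Cxcl17 were high on the Plin2 array as well. Cxcl13, the B cell attractant that binds Cxcr5, stood at 10.62 on the empty vector, 11.76 on the Plin2 and 10.45 on the Plin5 array. Cxcl16, a membrane-bound ligand of Cxcr6 made by macrophages and dendritic cells, stood at 10.07, 11.30 and 9.40. Xcl1, a product of natural killer and CD8 T cells that binds Xcr1, stood at 7.57, 8.38 and 7.69. Against the empty vector, Cxcl13 differed by 1.14 and −0.17, Cxcl16 by 1.23 and −0.67, and Xcl1 by 0.81 and 0.12 on the Plin2 and Plin5 arrays. Cxcl16 joined Ccl9 in being past 1.5-fold in opposite directions on these arrays. Cxcl17, a mucosal chemokine, stood at 6.21, 7.25 and 6.11, so its Plin2 array was 1.04 above the empty vector.

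Ccl21 and Ccl24 had patterns of their own. Ccl21, made by lymphatic endothelium and bound by Ccr7, stood at 8.10 on the empty vector, 7.97 on the Plin2 and 8.75 on the Plin5 array. It was 0.66 higher on the Plin5 array than on the empty vector array and 0.79 higher than on the Plin2 array. Ccl19, the other ligand of Ccr7, stood at 6.26, 6.50 and 6.26. Ccl24, an eosinophil attractant that binds Ccr3, stood at 7.70, 7.06 and 7.62, and was lower on the Plin2 array (−0.64). Ccl11, also a Ccr3 ligand, stood at 5.88, 6.27 and 5.63, and only its difference between the perilipin arrays (−0.64) passed 1.5-fold.

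The other 9 ligands past the dim level did not reach 1.5-fold in any comparison. They were Ccl17 and Ccl22 (Ccr4 ligands), Ccl19, the skin and mucosal ligands Ccl27 and Ccl28, the neutrophil attractant Cxcl1, Cxcl12, Cxcl14 and Cx3cl1. Their differences from the empty vector ran from −0.31 (Cxcl14) to 0.24 (Ccl19) on the Plin2 array and from −0.17 (Ccl22) to 0.05 (Cxcl12) on the Plin5 array. Cxcl12, the stromal ligand of Cxcr4, stood at 10.20, 10.20 and 10.25. Dim ligands were Ccl20, Ccl25, Ccl26, Cxcl2, Cxcl3 and Cxcl6. Cxcl6 was the only one of them above the dim level on any array, at 5.50 on the Plin2 array. The neutrophil attractants Cxcl2 and Cxcl3 had equal values under the dim level on all arrays.

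**Figure D3:**
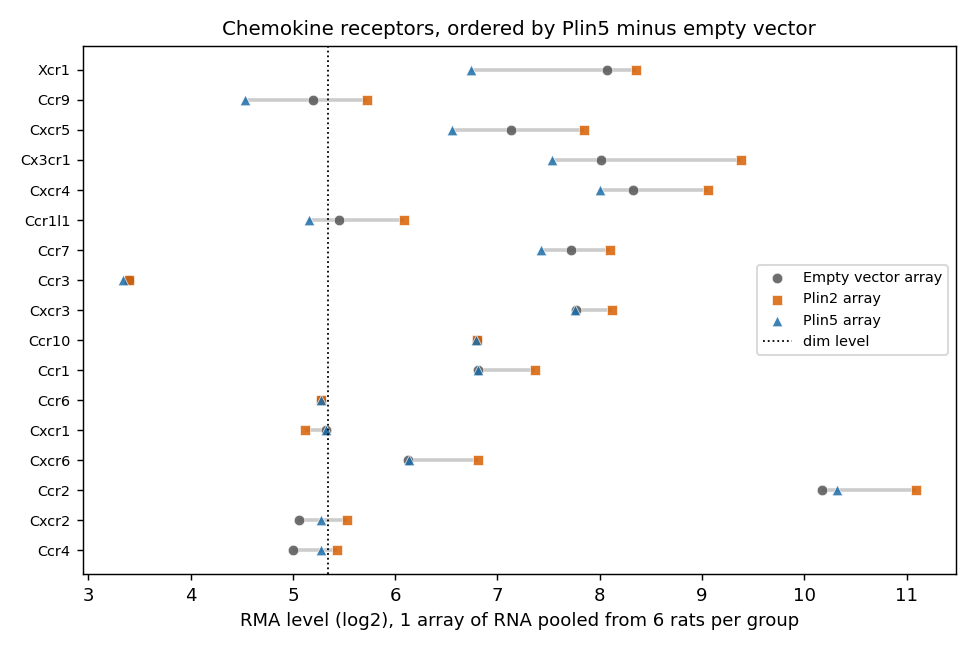
Log2 RMA level of each of the 17 chemokine receptors (rows, ordered by the Plin5 minus empty vector difference) on the empty vector (circles), Plin2 (squares) and Plin5 (triangles) arrays; grey bars join the lowest and highest value and the dotted line is the dim level of 5.34. The Plin2 array is highest for 13 receptors, the dim Ccr4, Ccr9 and Cxcr2 among them. Xcr1 shows the widest gap below the empty vector on the Plin5 array (6.74 against 8.07).

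Receptors of monocytes and macrophages were high on the Plin2 array. Ccr2 stood at 10.18 on the empty vector, 11.09 on the Plin2 and 10.32 on the Plin5 array, differences of 0.91 and 0.14. Its ligands Ccl2, Ccl7 and Ccl12 were 0.62 to 1.09 above the empty vector on the Plin5 array, so the receptor differed less there than its ligands. Cx3cr1, carried by monocytes, macrophages and natural killer cells, stood at 8.02, 9.38 and 7.54. It was 1.37 (2.58-fold) higher on the Plin2 array and differed by −0.48 on the Plin5 array. Its ligand Cx3cl1 was 6.81 on every array, a value that 23 to 28 probe sets per array held. Ccr1 stood at 6.81, 7.37 and 6.81, and its Plin2 difference of 0.55 was 1.47-fold. Ccr1l1, a Ccr1-like gene, stood at 5.45, 6.09 and 5.16, under the dim level on the Plin5 array. It passed the filter only through the Plin2 array, the array on which it was then counted as higher. Its Plin2 difference of 0.64 became 0.55 when arrays were centred, which is under 1.5-fold.

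Xcr1, Cxcr5, Cxcr4 and Ccr7, receptors of dendritic cells and lymphocytes, were each highest on the Plin2 and lowest on the Plin5 array. Xcr1, a receptor of cross-presenting dendritic cells, stood at 8.07 on the empty vector, 8.35 on the Plin2 and 6.74 on the Plin5 array. The Plin5 difference of −1.33 (2.51-fold) was exceeded downward by 15 of 10879 genes. Cxcr5, found on B cells and follicular helper T cells, stood at 7.13, 7.85 and 6.55. It was 0.72 higher on the Plin2 array, and its Plin5 difference of −0.58 was 1.49-fold, just short of the size counted. Cxcr4, the widely expressed receptor of Cxcl12, stood at 8.32, 9.06 and 8.00. Ccr7, which guides T cells and dendritic cells to lymph nodes, stood at 7.72, 8.10 and 7.43. The Plin2 differences were 0.74 for Cxcr4 and 0.38 for Ccr7, and the Plin5 differences were −0.32 and −0.29.

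Cxcr3 and Cxcr6, receptors of activated T cells, were near the empty vector on the Plin5 array. Cxcr6 stood at 6.12 on the empty vector, 6.81 on the Plin2 and 6.13 on the Plin5 array. Cxcr3 stood at 7.77, 8.12 and 7.76, so it differed by 0.35 and −0.02, while its ligands differed by 0.91 to 2.29 and by 0.49 to 0.95. Ccr10, a receptor of skin-homing lymphocytes, stood at 6.80, 6.80 and 6.79. The dim receptors were Ccr3, Ccr4, Ccr6, Ccr9, Cxcr1 and Cxcr2, of which Cxcr1 and Cxcr2 are receptors of neutrophils. Of the dim receptors, Ccr9 alone passed 1.5-fold against the empty vector, at 5.2, 5.73 and 4.54. It lay under the dim level on the empty vector and Plin5 arrays, so its −0.66 is a difference between dim values. Its empty vector value was held by 90 probe sets on that array.

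Between the perilipin arrays most members past the dim level were lower with Plin5. By at least 1.5-fold, 15 ligands and 8 receptors were lower, where 11.3% of genes were, and 1 ligand, Ccl21, and none of the receptors was higher, where 7.19% of genes were. Ccr1l1, which passed the dim level only through the Plin2 array, was 1 of the 8. The median difference was −0.64 for ligands and −0.78 for receptors, beside 0.00 for all genes, and with dim members it was −0.24 and −0.67. The widest gaps were in Ccl9 (−1.91), Cxcl16 (−1.90), Cx3cr1 (−1.85) and Xcr1 (−1.62), members that were highest on the Plin2 and lowest on the Plin5 array. Under centring, which moved the all-gene median up by 0.12, the counts were 11 ligands and 6 receptors lower and 2 ligands higher, and over all genes 1109 higher and 979 lower, in place of 782 and 1225. Ccl2, Ccl3, Ccl11, Xcl1, Ccr7 and Cxcr6 were the members no longer counted as lower, and Ccl24 (0.57, or 0.69 when centred) was the ligand added as higher.

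Many chemokine genes lie side by side in clusters that arose by duplication. In the RefSeq gene order, with at most 5 gene steps between members, 33 members fell into 9 clusters. In the Ccl2, Ccl7, Ccl11 and Ccl12 cluster 3 of 4 genes were higher on the Plin2 and on the Plin5 array than on the empty vector array. In the Ccl5, Ccl9, Ccl6, Ccl3 and Ccl4 cluster 4 of 5 were higher on the Plin2 array, and on the Plin5 array none was higher and 1 was lower. In the Cxcl11, Cxcl10 and Cxcl9 cluster 3 were higher on the Plin2 and 2 on the Plin5 array. In the cluster of the neutrophil attractants Cxcl2, Cxcl1, Cxcl3 and Cxcl6 none was higher or lower in either comparison. The receptor cluster Ccr9, Cxcr6, Xcr1, Ccr1, Ccr3, Ccr1l1 and Ccr2 had 3 of 7 higher on the Plin2 array and 2 lower on the Plin5 array. Among the 3 was Ccr1l1, which passed the dim level only through the Plin2 array, and 1 of the 2 was the dim Ccr9. The cluster counts include dim members, so the background is all 14506 genes. On that background 6.73% of genes were higher and 4.36% lower on the Plin2 array, and 0.165% and 1.08% on the Plin5 array. Between the perilipin arrays 5.4% were higher and 8.57% lower with Plin5. Lower were 4 of the 4 genes in the Ccl2 cluster, 5 of 5 in the Ccl5 cluster and 2 of 3 in the Cxcl11 cluster. In the receptor cluster 5 of 7 were lower, the dim Ccr9 and Ccr1l1 among them, and in the Cxcl2 cluster 1 of 4, the dim Cxcl6. In the Ccl27, Ccl19 and Ccl21 cluster Ccl21 was higher with Plin5 in both comparisons, and in the Ccl24 and Ccl26 cluster Ccl24 was lower on the Plin2 array. The Ccl17, Cx3cl1 and Ccl22 cluster and the Cxcr2 and Cxcr1 cluster had none higher or lower in any comparison.

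Genes that work with chemokines were described by lists. Of 19 measured signalling genes below the receptors, 14 were higher on the Plin2 array and none lower, with a median of 0.88; over all genes past the dim level 8.84% were higher and 5.8% lower. On the Plin5 array 3 of the 19 were lower and none higher (median −0.25), beside 1.42% and 0.221% of all genes. The named members were Rgs1 (1.48 and −0.70) and Rgs18 (1.02 and −1.17), which switch off G protein signals, and Vav1 (8.17, 9.36 and 7.92), an exchange factor for small GTPases in leukocytes. Rgs1 was under the dim level on the empty vector and Plin5 arrays and passed the filter only through the Plin2 array. Its 1.48, 1 of the 14 counted as higher, therefore starts from a dim value. Its −0.70, 1 of the 3 counted as lower, is a difference between dim values. Of 15 measured leukocyte adhesion genes, 7 were higher on the Plin2 array, and on the Plin5 array 2 were lower and none higher. The integrin chains Itgam (1.29 and −0.38), Itgb2 (1.27 and −0.52) and Itgal (1.16 and −0.61) led that list. Of 5 measured atypical receptors and chemokines with other names, the platelet chemokine Pf4 (0.67) and Ccrl2 (0.68) were higher on the Plin2 array and none was higher or lower on the Plin5 array.

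Of 13 inducers of chemokine genes past the dim level, 9 were higher on the Plin2 array (8.84% of all genes were). On the Plin5 array 2 were higher and 1 lower, beside 0.221% and 1.42% of all genes. The higher ones were the cytokine Ifng, at 5.24, 6.54 and 6.15 on the empty vector, Plin2 and Plin5 arrays, and the interferon-regulated factor Irf1, at 8.80, 10.13 and 9.55. Irf1 had the order that the Cxcr3 ligands had, but this order was not particular to them. With dim members included, 11 ligands and 4 receptors held it, and so did the inducer Il1b (7.29, 8.44 and 7.64). A link between these genes was not tested. Ifng was under the dim level on the empty vector array and passed the filter through the other arrays, so its differences there of 1.30 and 0.91 start from a dim value. Irf7, a factor of the antiviral interferon response, stood at 10.72, 11.81 and 9.58 and was the lower one.

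**Figure D4:**
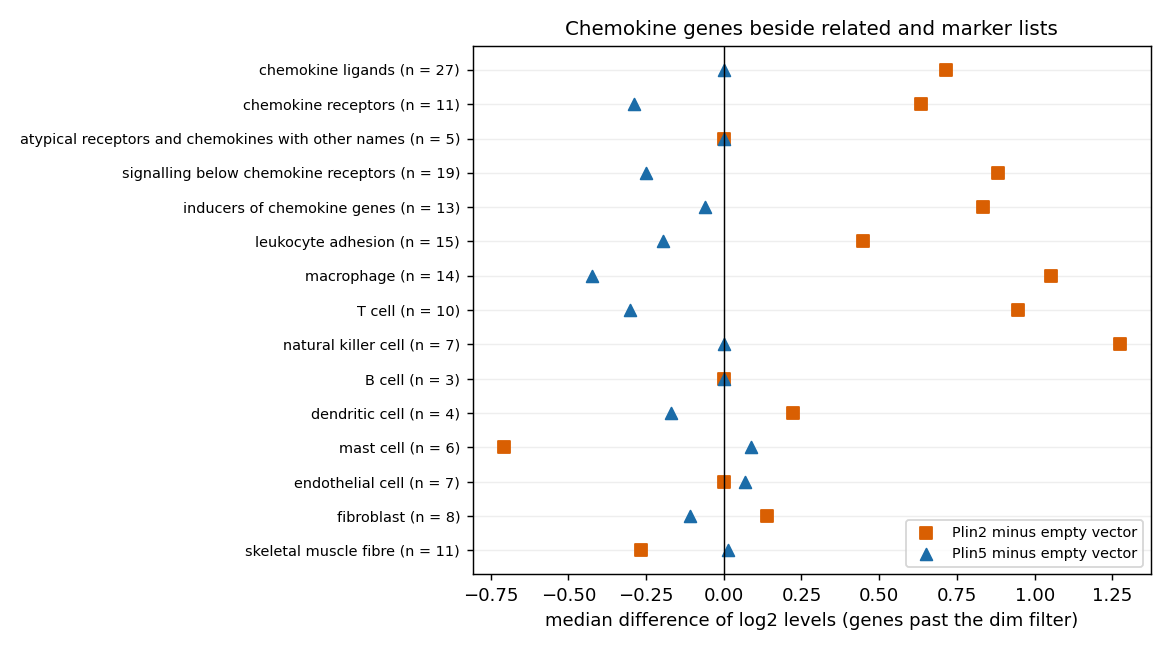
Median difference in log2 level from the empty vector array on the Plin2 (squares) and Plin5 (triangles) arrays, for chemokine ligands, receptors and each list with at least 3 genes past the dim level (number of genes in brackets). Macrophage and T cell markers stand at 1.05 and 0.95 on the Plin2 array and at −0.42 and −0.30 on the Plin5 array, where the chemokine ligands stand at 0.00.

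Markers of immune cells differed between arrays along with the members, and their part in these results was not tested. In whole muscle, fewer cells of a type and less RNA per cell cannot be told apart. Of 14 macrophage markers, 12 were higher and none lower on the Plin2 array (median 1.05), and 5 were lower and none higher on the Plin5 array (median −0.42). Over all genes past the dim level, 8.84% were higher and 5.8% lower on the Plin2 array, and 0.221% higher and 1.42% lower on the Plin5 array. These shares are the background for each marker list. The summed linear level of the macrophage markers was 13903 on the empty vector, 29168 on the Plin2 and 11168 on the Plin5 array. Of 11 T cell markers, 10 were past the dim level. On the Plin2 array 9 of these were higher, and on the Plin5 array none was higher or lower (median −0.30), with summed levels of 4567, 7938 and 3637. Cd4, at 11.16, 11.67 and 10.75, was the brightest gene of the T cell list and weighed most in these sums. Cd3e of the same list stood at 8.12, 9.06 and 7.90. Whether the Cd4 RNA came from T cells alone was not tested, so these sums are not a measure of T cells only. Cd4 was the one past the dim level not higher by 1.5-fold on the Plin2 array (0.52). Of 7 natural killer cell markers, 5 were higher on the Plin2 array and 1, Gzmb (0.79), on the Plin5 array, with summed levels of 2826, 7195 and 2998. The 5 were Nkg7, Klrd1, Prf1, Gzmb and Klrk1, whereas Ncr1 (0.12) and Klrb1a (0.32) did not reach 1.5-fold on the Plin2 array. Ncr1 lay near the dim level, at 5.63, 5.76 and 5.63. Cd8a (1.54) and Cd8b (1.33) of the T cell list were higher on the Plin2 array too. Whether the RNA of the 5 came from natural killer cells or CD8 T cells was not tested. The natural killer median on the Plin5 array was 0.00, with Nkg7 at 0.24 and Klrk1 at −0.44, and the macrophage markers Lyz2 (0.03) and Cd163 (0.04) were near the empty vector there.

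Markers of other cell types were also read. Of 9 neutrophil markers found, 8 were under the dim level on each array, among them S100a8 and S100a9. The other, the receptor gene Csf3r, stood at 7.75 on the empty vector, 9.40 on the Plin2 and 7.40 on the Plin5 array, 1.66 higher on the Plin2 array. Of 5 dendritic cell markers found, 4 were past the dim level, 1 of which, Cd83, was higher on the Plin2 array (0.81), with none higher or lower on the Plin5 array. Of 4 B cell markers found, 3 were past the dim level and Jchain was lower on the Plin5 array (−1.85). Eosinophil markers were past the dim level for 2 of 5 genes, and neither was higher or lower. Endothelial (7 genes) and fibroblast (8 genes) markers had none higher or lower at 1.5-fold on either array. All 11 muscle fibre markers lay below the empty vector on the Plin2 array (median −0.27, summed level 0.852 times the empty vector's). So did 3448 of the 10879 genes past the dim level. Of the fibre markers, Myh2 (−0.98) and Pvalb (−0.60) passed 1.5-fold, where 5.8% of genes were lower.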

How the data were processed

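The authors' deposited table held log2 expression values of 29214 probe sets on 3 arrays, made with RMA per the submitters' processing notes with no version named. No header names the base of the logarithm; log2 was taken from what RMA returns and from the range of values. For the chip definition and genome build, the sources used here name none. RMA scales the arrays to each other, so a change in total RNA is not measured.

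Values were used as deposited. Probe sets with a single gene symbol (15310) were kept; 323 had several symbols and 13581 were not listed. Where a gene had several such probe sets, the brightest on average stood for it (14506 genes). All 50 member symbols were current in the RefSeq table (GRCr8, names and gene order only). Genes with a mean under 5.34 were dim, which left 10879. Differences of log2 values were counted at 1.5-fold. With 1 array per group there was no test. The counting step was checked on simulated data with planted differences and no noise, which covers the counting only and not the reliability of the differences.

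The members and lists were chosen with earlier results of these data known. Members past the dim level and 1.5-fold in any comparison (26) were named with every array's value, the others by range, and up to 3 leading genes per list. Alternatives changed the fold, the filter, the scaling (centring, quantile, loess on level), the choice of probe set, dim values (raised to the dim level) and equal values (left out). Protein sequences were not used here. Tables were computed with pandas 2.3.3 and numpy 2.4.6 in Python 3.11.15. The loess came from statsmodels 0.14.6, and matplotlib 3.10.9 drew the plots.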

Additional observations from a re-analysis of the deposited data

How the results depend on the processing

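Of 48 alternatives run for the medians, 36 moved them by at most 0.1. Without the dim filter the Plin2 medians against the empty vector were 0.38 (ligands) and 0.46 (receptors), the receptors' Plin5 median was −0.016, and those between the perilipin arrays were −0.24 and −0.67. With the filter at the median gene (7.34), the ligands' Plin2 median was 0.96, and those between the perilipin arrays were −0.80 and −0.92. With centring the latter were −0.52 and −0.65. Raising dim values to the dim level gave a Plin5 receptor median of −0.11, and leaving out equal values a Plin2 ligand median of 0.93. For the counts, 45 of 54 alternatives were within 1.5 times the reported count. At 1.2-fold, 10 receptors were higher on the Plin2 array and 6 lower on the Plin5 array than on the empty vector array, in place of 6 and 1; of all genes, 2106 were higher and 1682 lower on the Plin2 array and 165 and 621 on the Plin5 array. At 2-fold, 1 receptor was counted for Plin2 against the empty vector and 1 ligand for Plin5 against it, and 6 ligands and 4 receptors between the perilipin arrays. Without the dim filter 2 receptors were lower for Plin5 against the empty vector, where 1.08% of genes were. They were Xcr1 and Ccr9, and that of Ccr9 is a difference between dim values. With the filter at the median gene, 3 receptors were counted for Plin2 against the empty vector and 5 between the perilipin arrays, since 6 receptors remained. Of the 7253 genes past that filter, 749 were higher and 586 lower in the former comparison, and 719 and 955 in the latter. Of all genes at 2-fold, 272 were higher and 142 lower on the Plin2 array, 3 and 40 on the Plin5 array, and 215 and 562 between the perilipin arrays. Of the 78 differences of named members, 7 went under 1.5-fold and 1 over it with centring, and that of Cxcl9 between the perilipin arrays turned from −0.07 to 0.05; quantile normalization took Ccl24 between the perilipin arrays to 0.64. No paired analysis was possible because each group had 1 array, and for the same reason no array could be left out. Members under the dim level have no reliable order.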

Other observations

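Mast cell markers differed from the macrophage, T cell and natural killer lists in direction: 3 of 6 were lower on the Plin2 array (5.8% of all genes were), Mcpt1l1 (−1.29), Cpa3 (−1.20) and Cma1 (−0.90), and their differences on the Plin5 array were 0.38, 0.27 and 0.18. The ligand Ccl24 (−0.64) was lower on the Plin2 array beside them.

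Some member values are shared by many probe sets. The value 5.28 that Ccr6 held on all arrays, and that Ccr4 and Cxcr2 held on the Plin5 array, occurred in 79 to 85 probe sets per array, and the 4.52 of Cxcl2 in 96 to 105. The empty vector value of Ccr9 (5.20) occurred in 90 probe sets on that array. The value 5.66 of Ccl28 occurred in 61 to 67 probe sets per array, although Ccl28 was past the dim level. So were Ccl17, whose 6.33 occurred in 30 to 34, and Cx3cl1, whose 6.81 occurred in 23 to 28.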
